A study of Mus musculus with 4 samples.

Results

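Lars2, Gm15564, Mir6240 and Gm26917 are annotated loci of the mouse genome that, by general knowledge of their sequence, hold or lie beside copies of ribosomal RNA (rRNA). They were chosen by measured values, as 4 of the 15746 genes listed. Lars2, Gm15564 and Mir6240 differed more than 8-fold between replicates 1 and 2 in both fractions, and Gm26917, which adjoins the pre-rRNA copy on chromosome 17, had a very high value in the rest fraction. The data are 4 RNA-seq libraries from hearts of adult wild-type (WT) mice, 2 from isolated mitochondria (mitochondrial fraction) and 2 from the tissue minus mitochondria (rest fraction, the low-speed pellet of cell debris). The mitochondrial samples alone were treated with digitonin, a detergent, and RNase A before RNA isolation, and had an adjusted fragmentation time, so that these steps and the fraction cannot be told apart. Nothing in the labels says whether replicates or fractions with the same number came from the same or separate animals, so that p-values measure only the spread between these libraries. In such bulk samples fewer cells of a type and less RNA per cell cannot be told apart.

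Ribosomal RNA of the cytosol is made in the nucleolus, where RNA polymerase I copies tandem gene repeats into a long precursor (pre-rRNA). Its external and internal spacers are cut away and degraded, which leaves the 18S, 5.8S and 28S rRNAs, while 5S rRNA is made separately by RNA polymerase III. Fragments and copies of these repeats are scattered through the genome, and some lie within annotated genes that have other functions or none known. Lars2 encodes the mitochondrial leucyl-tRNA synthetase, which joins leucine to its tRNA in mitochondria. Gm15564 and Gm26917 are annotated as long non-coding RNAs, and Mir6240 as a microRNA.

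All positions are in GRCm38 and were the same in the table and in the GENCODE M21 annotation for these loci. Lars2 (ENSMUSG00000035202) lies on the plus strand at chr9:123366927-123462666. Gm15564 (ENSMUSG00000086324) lies on the minus strand at chr16:35966752-35983230, Mir6240 (ENSMUSG00000098343) on the plus strand at chr5:114851948-114852064, and Gm26917 (ENSMUSG00000097971) on the plus strand at chr17:39843013-39846341. The stretch below is shown because it ties Lars2 to Gm15564. Exon 2 of a transcript of Gm15564 is 71 bases long and aligned over its whole length with bases 3279 to 3349 of the 3894 bases of a transcript of Lars2, with 98.6% identity. In Lars2 the stretch is at chr9:123462049-123462119, inside the last of 21 exons and within the 3′ untranslated region. In Gm15564 it is an exon that lies in an intron of Kpna1 on the opposite strand. The only difference was T52A, where the base of Gm15564 stands first, the position is counted from 1 at the 5′ end of exon 2, and the base of Lars2 stands last. Sequences are from GENCODE M21, the capital marks that position, and the 30 bases of Lars2 are those around it.
Gm15564 exon 2, chr16:35981725-35981795, minus strand: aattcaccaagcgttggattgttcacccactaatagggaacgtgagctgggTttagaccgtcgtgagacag
Lars2, chr9:123462085-123462114, plus strand: ggaacgtgagctgggAttagaccgtcgtga

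AA474408, an unconfirmed transcript on chromosome 7, holds a longer form of the same stretch, with an identity of 87.5% over 80 aligned columns. It carries 9 inserted bases and the substitution G36A on the same numbering, both in capitals here.
AA474408, chr7:110059658-110059737, minus strand: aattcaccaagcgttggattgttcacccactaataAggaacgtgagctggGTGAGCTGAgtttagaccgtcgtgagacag
Among all transcripts of GENCODE M21, Lars2 was the only gene that matched Gm15564 at 95% identity or more over at least 50 bases, and Gm15564 the only one that so matched Lars2. By general knowledge the stretch reads as part of 28S rRNA. No 28S sequence was among the references used here, so that the identity to 28S was not computed.

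Mir6240 is shown with its mature sequence, for which RefSeq (GRCm38.p6) gave both entries. The seed (bases 2 to 8) is in capitals in the mature form, and the hairpin has none marked.
mmu-miR-6240, chr5:114851973-114851998, plus strand: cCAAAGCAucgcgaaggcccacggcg
Mir6240 hairpin, chr5:114851948-114852064, plus strand: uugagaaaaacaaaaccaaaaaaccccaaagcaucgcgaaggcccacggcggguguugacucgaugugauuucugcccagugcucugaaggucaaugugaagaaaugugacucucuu
Much of this hairpin also reads as 28S rRNA by general knowledge, again without a computed identity. It shared no aligned stretch with the other 3 loci, and no other gene matched it at 95% identity over at least 50 bases. The library preparation was not one for small RNAs, so the values of Mir6240 count fragments over the hairpin and not the mature microRNA.

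Gm26917 ends 11 bases before CT010467.1, a gene of the type rRNA that takes up chr17:39846353-39848827. CT010467.1 is annotated on the minus strand, and its locus read on the plus strand, the strand of Gm26917, opens with the familiar start of 18S rRNA. Gm26917 thus lies where a pre-rRNA has its 5′ external spacer. The end of Gm26917 and the start of the locus after it are shown for that order.
Gm26917, last 60 bases, chr17:39846282-39846341, plus strand: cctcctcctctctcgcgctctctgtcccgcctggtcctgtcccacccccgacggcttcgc
CT010467.1 locus, chr17:39846353-39846412, plus strand: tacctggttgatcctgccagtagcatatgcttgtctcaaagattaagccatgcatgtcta
Bases G and C made up 69.1% of Gm26917, against 55.4% of CT010467.1, 51.2% of that Lars2 transcript, 52.2% of that Gm15564 transcript and 47.0% of the Mir6240 hairpin. Gm26917 shared no aligned stretch with the other 3 loci or with CT010467.1. The annotation also has Gm42418 and AY036118 over the exons of CT010467.1, neither of which has values here, and the authors left out reads that overlapped several genes. The values of CT010467.1 may therefore leave out reads from the overlapped part.

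The table gives normalized counts, which are read counts per gene divided by a size factor of the library. About 23500000 to 47400000 reads on genes lay behind each library, and 1 read added 3.87 (replicate 1) and 2.55 (replicate 2) to the normalized count in mitochondrial libraries, and 0.264 and 0.365 in rest libraries. Genes of the mitochondrial chromosome took 97.6% and 93.5% of the total in mitochondrial libraries and 63.2% and 67.5% of it in rest libraries. All 9 cardiomyocyte markers were detected in each library, with summed levels from 310800 to 548142 normalized counts, and the summed levels of the 4 endothelial markers were from 1755 to 2872. Of the 12150 genes tested with limma, 262 were higher and 169 lower in the mitochondrial fraction at an adjusted p under 0.05. That split moved to 2 higher and 12022 lower with libraries scaled to their totals, and to 129 and 3819 with totals without the mitochondrial chromosome. No gene passed when any 1 library was left out or with a pseudocount of 0.1.

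In the mitochondrial fraction Lars2 had 1929 normalized counts in replicate 1 and 52653 in replicate 2, and in the rest fraction 1440 and 113689. Both libraries of replicate 2 were high and both of replicate 1 low, and the fractions overlapped. Replicate 2 was 27.3-fold above replicate 1 in the mitochondrial fraction and 79.0-fold above it in the rest fraction. About 498, 20641, 5449 and 311112 reads lay behind these values, in the same order, so that counting error was small against the differences.

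For Gm15564 the normalized counts of replicates 1 and 2 were 515 and 8864 (mitochondrial fraction) and 245 and 15662 (rest fraction). The same libraries were high and low as for Lars2. Replicate 2 exceeded replicate 1 by 17.2-fold in the mitochondrial and 63.9-fold in the rest fraction. Per kilobase of exons, Lars2 stood at 0.277, 0.440, 0.435 and 0.537 of the level of Gm15564, in mitochondrial replicates 1 and 2 and rest replicates 1 and 2. This ratio moved by far less than either gene alone, which follows in part from the selection of both genes on their replicate differences.

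Mir6240 was low throughout, at 4 and 54 normalized counts (mitochondrial replicates 1 and 2) and 7 and 78 (rest replicates 1 and 2), again with both replicate 2 libraries high. In mitochondrial replicate 1 the value was a single read, and in mitochondrial replicate 2 it was 21 reads. Their ratio after scaling was 13.8, with an exact 95% interval from 2.22 to 572. In the rest libraries about 26 and 213 reads gave a ratio of 11.3 (7.52 to 17.7). Both intervals cover counting error only. Copies made by PCR were not marked, so even that error may be wider than shown. Since Mir6240 was selected on these ratios, the intervals describe the counting and are no test of a replicate difference.

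Gm26917 went the other way between replicates, at 2432 and 1477 normalized counts (mitochondrial replicates 1 and 2) and 27872 and 14824 (rest replicates 1 and 2). The 2 rest libraries were both above the 2 mitochondrial libraries, which follows in part from the choice of this gene by its high rest value. Replicate 1 exceeded replicate 2 by 1.65-fold in the mitochondrial and 1.88-fold in the rest fraction. About 628 and 579 reads (mitochondrial) and 105477 and 40566 reads (rest) were behind them. With libraries scaled to their totals the order of the mitochondrial replicates turned, with replicate 2 minus replicate 1 at 0.44 on the log2 scale, against -1.21 in the rest fraction.

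**Figure D1:**
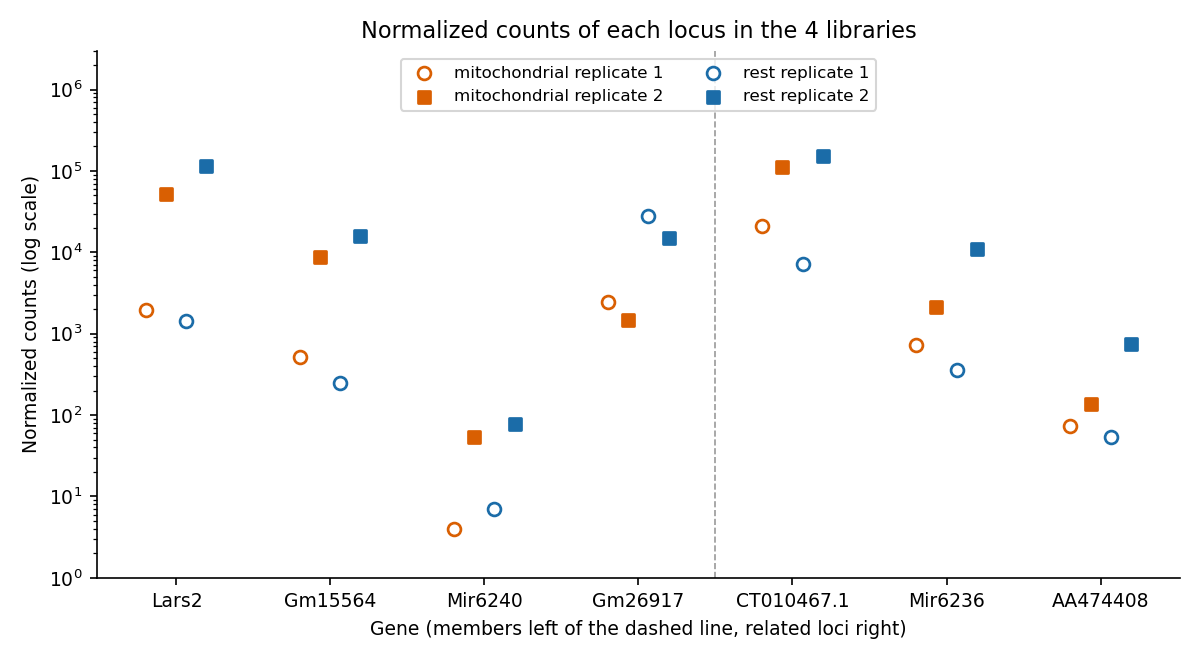
Normalized counts on a log axis for the 4 loci and for 3 related loci, with open circles for replicate 1, filled squares for replicate 2, orange for the mitochondrial and blue for the rest fraction. In every gene but Gm26917 the squares lie above the circles of the same colour, and in Gm26917 the blue points lie above the orange.

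Levels of different genes can be set side by side only per length, here as normalized counts per kilobase of exons. On this scale Gm15564 was the highest of the 4 loci in rest replicate 2, with 19077, ahead of Lars2 with 10252, Gm26917 with 4453 and Mir6240 with 667. In rest replicate 1 Gm26917 led with 8372, against 298 for Gm15564, 130 for Lars2 and 59.8 for Mir6240. Mitochondrial replicate 2 had the order of rest replicate 2 for Gm15564 (10797) and Lars2 (4748), followed by Mir6240 (462) and Gm26917 (444). The lengths take all exons of a gene, 11089 bases for Lars2 and 821 for Gm15564, and do not say where on the gene the reads fell.

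As a share of all normalized counts of nuclear genes, the 4 loci together took 0.109% and 1.19% in mitochondrial replicates 1 and 2 and 1.16% and 5.17% in rest replicates 1 and 2. Gm26917 made up most of the share of rest replicate 1, with 1.09%, and Lars2 most of that of rest replicate 2, with 4.08% (95% Wilson interval 4.06 to 4.09). With CT010467.1 the shares were 0.575%, 3.32%, 1.44% and 10.7%. In rest replicate 2, then, about 1 nuclear count in 10 fell on these 5 loci.

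The replicate differences were set beside those of all genes. On the log2 scale with a pseudocount of 1, the middle 90% of the 12150 genes lay between -1.32 and 2.58 for replicate 2 minus replicate 1 in the mitochondrial fraction, and between -0.66 and 0.65 in the rest fraction. Lars2 was at 4.77 and 6.30, Gm15564 at 4.10 and 5.99, Mir6240 at 3.46 and 3.30, and Gm26917 at -0.72 and -0.91. In the mitochondrial fraction 25.1% of genes differed more than 2-fold between replicates, and in the rest fraction 2.77%. Since the first 3 loci were selected on these differences, they are a description with no test.

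Replicate 2 was more than 8-fold above replicate 1 in both fractions for 3 genes (0.0247% of those tested), which are Lars2, Gm15564 and Mir6240. One gene (0.00823%) passed the same limit in the other direction, the processed pseudogene Gm12896, at 252 and 23 normalized counts (mitochondrial) and 678 and 59 (rest). Mir6240 was the member nearest to the limit, with a smaller difference of 3.30 on the log2 scale. Just outside it was the processed pseudogene Gm6425, at 2.94, at 0 and 54 (mitochondrial) and 2 and 22 (rest).

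**Figure D2:**
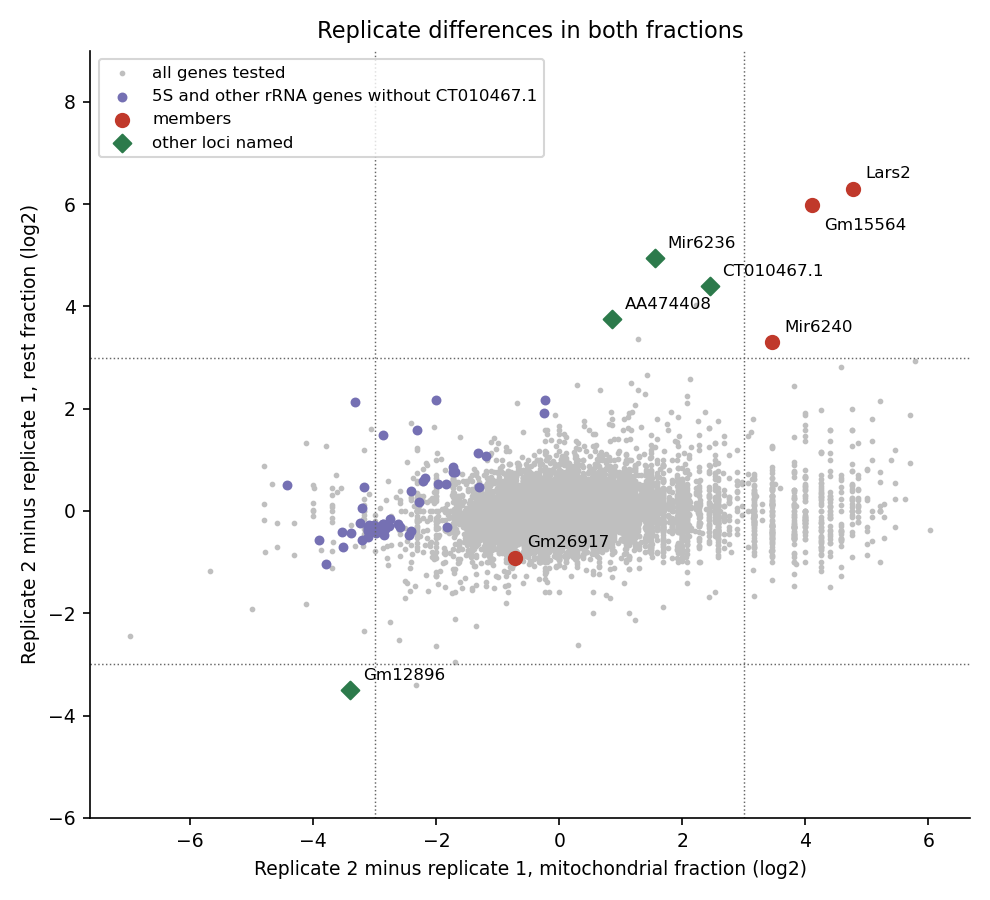
Replicate 2 minus replicate 1 on the log2 scale for the 12150 genes tested, mitochondrial fraction on the horizontal and rest fraction on the vertical axis, with dotted lines at 8-fold. Lars2, Gm15564 and Mir6240 are alone in the upper right corner, and the 5S and other rRNA genes lie left of zero.

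Other loci named as holding rRNA sequence were read in the same libraries. CT010467.1, over 18S rRNA, was at 20798 and 113238 normalized counts (mitochondrial replicates 1 and 2) and 7258 and 153292 (rest replicates 1 and 2), a 5.44-fold and a 21.1-fold excess of replicate 2. Mir6236 had 732, 2145, 359 and 11052 in the same order, and AA474408 had 74, 135, 54 and 738. In all 3 the replicate 2 library was the higher one in each fraction, with a smaller excess in mitochondria than in the rest fraction. Gm23935, an annotated microRNA locus named with rRNA copies, had 68986, 29672, 52174 and 55621, so that its 2 fractions did not move together. Gm10800 had 1638, 3709, 140 and 541, and Gm10801 had 256, 406, 15 and 81. Both were also named with rRNA copies, but their sequence was not examined here, so that they hold rRNA sequence is not shown. In both genes the replicate 2 library was again higher in each fraction, but the mitochondrial libraries lay above the rest libraries.

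The genes of 5S rRNA had replicate differences of the other sign from Lars2 and CT010467.1 in the mitochondrial fraction. Of 71 other genes of the type rRNA, most of them named as 5S copies, between which reads of near-identical sequence are uncertain, 60 were tested. In the mitochondrial fraction replicate 1 was above replicate 2 in 60 of these 60, and in the rest fraction in 39. Many of these genes had nearly the same values in each library, so they are not separate observations. Their median difference of replicate 2 minus replicate 1 was -2.90 on the log2 scale in the mitochondrial and -0.29 in the rest fraction. Over all 12150 genes tested that median was -0.02 and 0.0. The summed levels of the rRNA genes were 47337, 6309, 16146 and 13422 normalized counts. The 5.8S gene n-R5-8s1 was too low to be tested, at 19, 0, 7 and 1. The mitochondrial rRNAs were also higher in replicate 1 of the mitochondrial fraction and in replicate 2 of the rest fraction. mt-Rnr2, the large mitochondrial rRNA, had 131864839, 49927537, 2563033 and 3238075 normalized counts.

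Within the pre-rRNA copy on chromosome 17, the balance of both genes changed between libraries. Per kilobase of exons, CT010467.1 was 11.5-fold and 103-fold above Gm26917 in mitochondrial replicates 1 and 2, and 14-fold above it in rest replicate 2. Rest replicate 1 was the only library in which Gm26917 exceeded CT010467.1, by 2.84-fold per kilobase. All exons of CT010467.1 entered its length, although reads from the part under Gm42418 and AY036118 may have been left out. Its levels per kilobase may thus be too low, and the order in rest replicate 1 may depend on this.

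**Figure D3:**
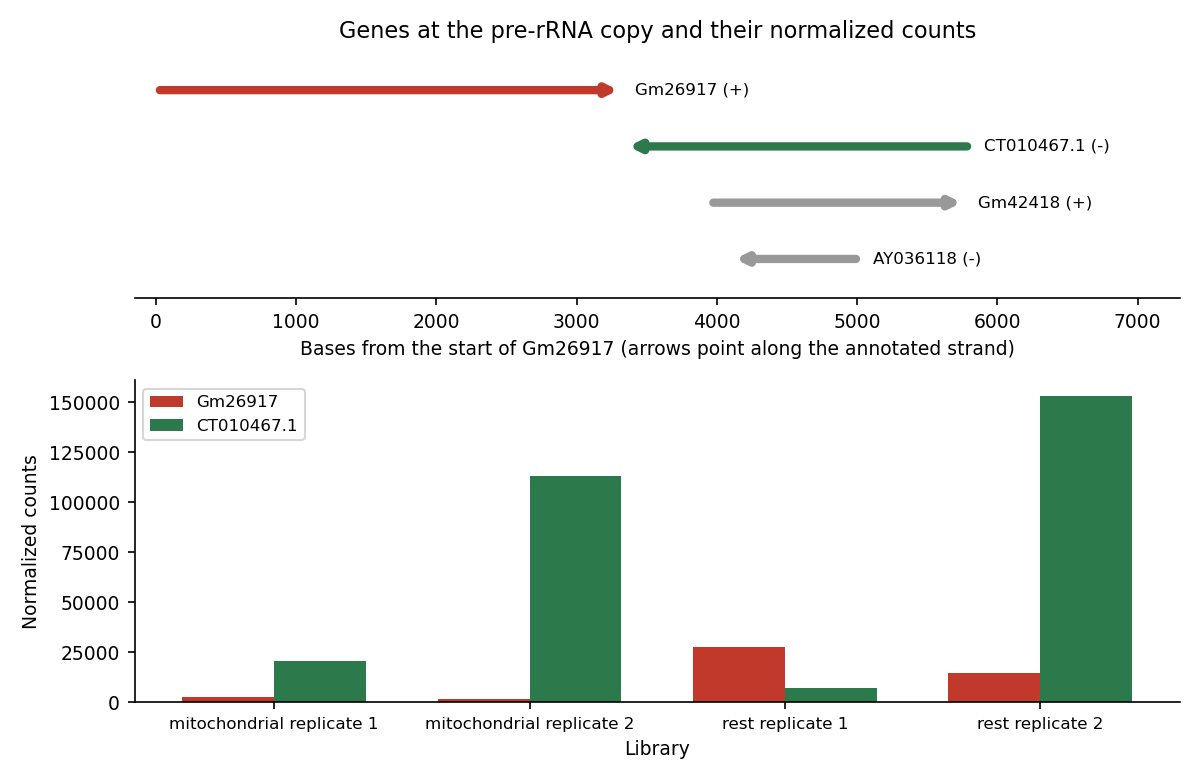
Above, the annotated genes at the chromosome 17 pre-rRNA copy by distance in bases from the start of Gm26917, with arrows along the annotated strand; below, normalized counts of Gm26917 and CT010467.1 in each library as bars. CT010467.1 reached 113238 and 153292 in the replicate 2 libraries, and Gm26917 was above it in rest replicate 1 alone.

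Genes next to Lars2, Gm15564 and Mir6240 that were tested differed between the rest replicates by at most 0.81 on the log2 scale (Oasl2), and in mitochondria by up to 3.81 (Wdr5b, at 0 in replicate 1). On either side of Lars2, Scp2-ps2 had 35, 31, 12 and 14 normalized counts and Limd1 had 81, 38, 124 and 105, in mitochondrial replicates 1 and 2 and rest replicates 1 and 2. Beside Gm15564, Dtx3l had 23, 41, 60 and 70, and Wdr5b had 0, 13, 9 and 12. Kpna1, a nuclear import receptor in whose intron exon 2 of Gm15564 lies on the other strand, had 341, 281, 282 and 338. Parp9, which overlaps the far end of Gm15564 on the other strand, had 15, 41, 52 and 49. Beside Mir6240, Oasl2 had 12, 28, 15 and 27, and 1500011B03Rik on the other side had 0, 0, 5 and 4. The nearest listed gene before Gm26917 was H2-M3, which ended 2568528 bases away and had 12, 18, 9 and 5.

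By function, Lars2 belongs with the mitochondrial aminoacyl-tRNA synthetases, each of which charges tRNAs of the mitochondria with an amino acid. Of 19 such genes 18 were tested, and 0 were higher and 0 lower in the mitochondrial fraction at an adjusted p under 0.05 (limma), against 2.16% and 1.39% of all genes. At an unadjusted p under 0.05 there were 2 in each direction, against 1718 higher and 1965 lower of all 12150 genes tested. The 18 genes other than Lars2 had 0 to 314 normalized counts in every library. Iars2 was at 314, 224, 273 and 262 in mitochondrial replicates 1 and 2 and rest replicates 1 and 2, and Mars2 at 39, 38, 39 and 41. The largest replicate difference among the other tested synthetases was 3.46 on the log2 scale, for Nars2 in the mitochondrial fraction, with 0, 10, 24 and 27, against 4.77 for Lars2 there. Lars, the cytosolic leucyl-tRNA synthetase, had 240, 242, 155 and 200, so that per kilobase of exons Lars2 exceeded it 3.89-fold, 105-fold, 4.50-fold and 275-fold. The highest of the other mitochondrial synthetases per kilobase had 62.2, 72.8, 51.3 and 55.5, against 174, 4748, 130 and 10252 for Lars2.

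**Figure D4:**
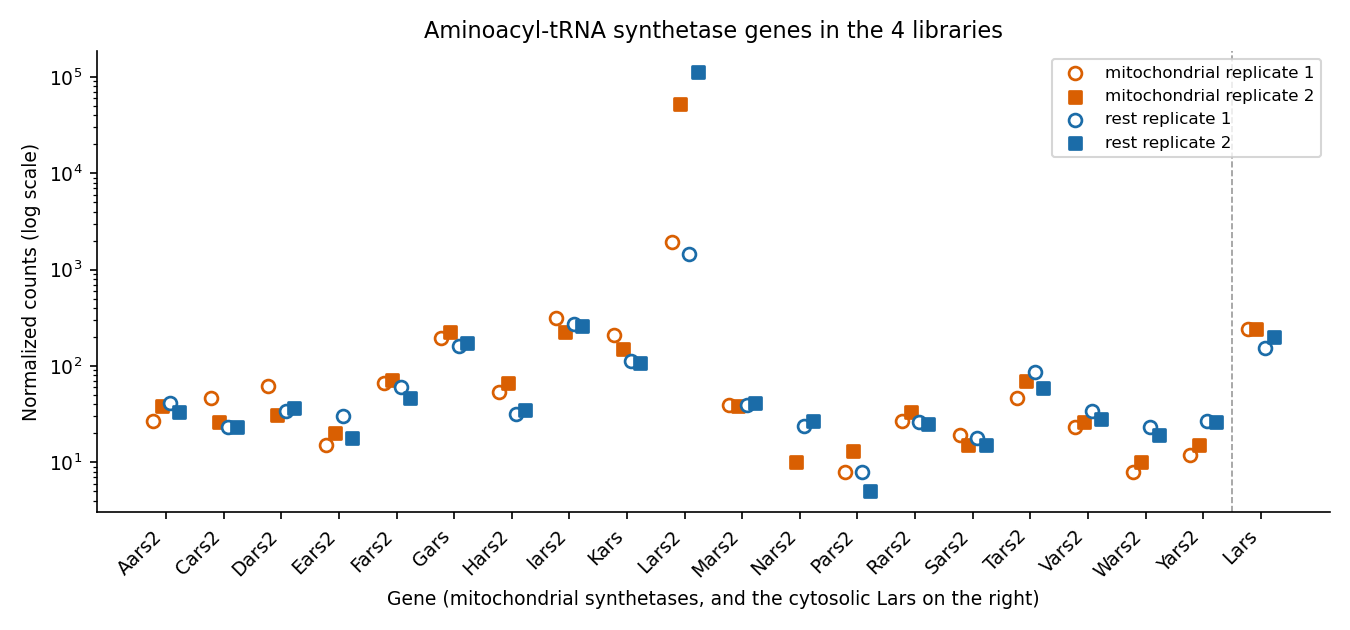
Normalized counts on a log axis for 19 mitochondrial synthetase genes and for the cytosolic Lars, by library; Nars2 had 0 in mitochondrial replicate 1 and has no point there. Lars2 stands above all others in each library, at 1440 or more normalized counts, which are not corrected for length here.

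The difference between the fractions was estimated with limma from log2 of the normalized count plus 1. Lars2 differed by -0.34 (SE 2.58, mitochondrial minus rest, adjusted p = 0.938), Gm15564 by 0.12 (SE 2.37, adjusted p = 0.974) and Mir6240 by -0.60 (SE 1.59, adjusted p = 0.820), each with 2 libraries a fraction. None of the 3 passed the test, with 2.16% of all genes called higher and 1.39% called lower. The replicate differences on which they were selected are part of these errors, so that the errors are wide by choice of the loci. The median difference over all tested genes was -0.14.

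The direction of these 3 differences depended on single libraries. Lars2 was at 2.04 without mitochondrial replicate 1, at -2.73 without mitochondrial replicate 2, at -3.50 without rest replicate 1 and at 2.81 without rest replicate 2. Gm15564 was at 2.18, -1.93, -2.87 and 3.12, and Mir6240 at 1.13, -2.33, -2.25 and 1.05, in the same order. Their adjusted p-values from limma in these fits were between 0.437 and 0.830, with the lone library of a fraction assumed to vary like the pair of the other. With libraries scaled to their totals, Lars2 came to -4.33, Gm15564 to -3.85 and Mir6240 to -3.99, while the median of all genes was -3.93. All 3 passed the threshold in that fit, but its SE for Lars2 was 0.67 although the replicates of Lars2 differed by 5.96 on average there, so the p-values do not carry the replicate spread of these loci and are not given. With totals without the mitochondrial chromosome, Lars2 came to -1.21, Gm15564 to -0.74 and Mir6240 to -1.40, against a median of -0.98, and none passed.

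Between libraries of the same number, Lars2 was 1.34-fold higher in the mitochondrial library for replicate 1 and 2.16-fold higher in the rest library for replicate 2. Gm15564 was 2.10-fold higher in the mitochondrial library for replicate 1 and 1.77-fold higher in the rest library for replicate 2. CT010467.1 had the same order, at 2.87-fold and 1.35-fold. Mir6240 was higher in the rest library in both, by 1.75-fold and 1.44-fold.

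Gm26917 averaged 1955 ± 675 normalized counts in mitochondrial libraries and 21348 ± 9226 (SD, n = 2 in both) in rest libraries. The difference, mitochondrial minus rest, was -3.42 on the log2 scale (SE 0.42), and because the high rest value chose this gene no test is given. The rest library was 11.5-fold above the mitochondrial library for replicate 1 and 10.0-fold for replicate 2. Scaling to library totals gave -7.41, and to totals without the mitochondrial chromosome -4.29, against medians of all genes of -3.93 and -0.98. Leaving out each library in turn gave values from -3.88 to -2.97.

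**Figure D5:**
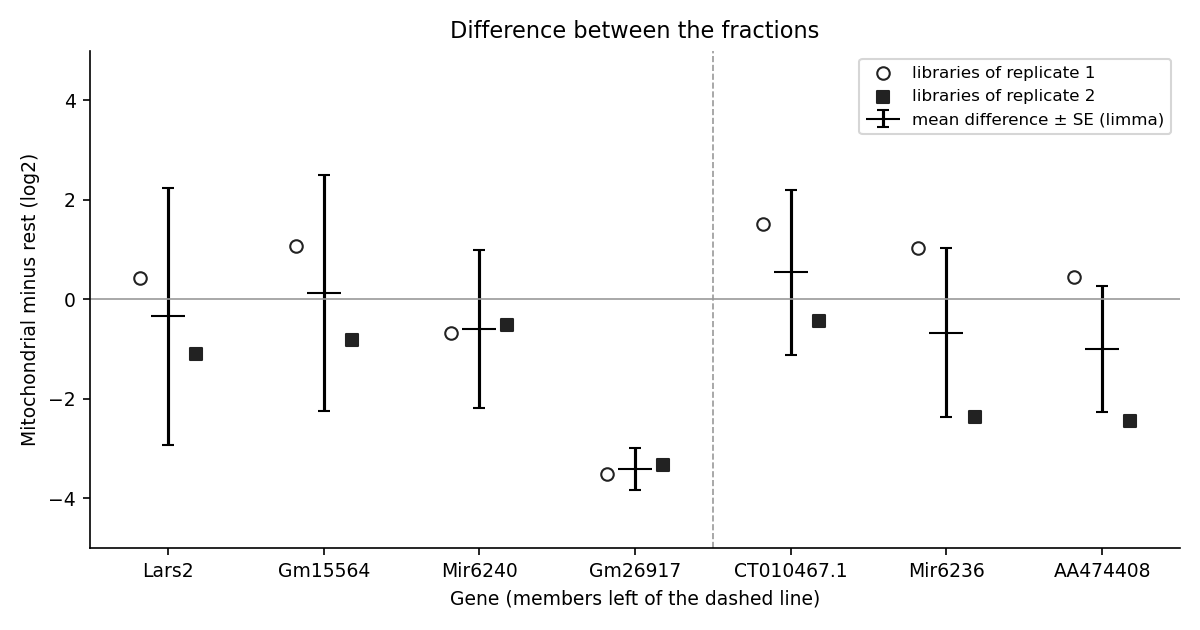
Mitochondrial minus rest difference on the log2 scale, with open circles for the libraries of replicate 1, squares for those of replicate 2, and a bar with whiskers for the mean difference ± SE from limma. The whiskers of Lars2, Gm15564 and Mir6240 span zero, and both points of Gm26917 lie below -3.

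Genes that make and process rRNA were set beside these loci. Of 22 genes of RNA polymerase I, its factors and the nucleolar processing machinery, 21 were tested, of which 2 were higher (2.16% of all genes) and 0 lower (1.39% of all genes) in the mitochondrial fraction by limma. At an unadjusted p under 0.05, 5 were higher and 1 lower, against 1718 higher and 1965 lower of all 12150 genes tested. Both that were higher after adjustment encode abundant nucleolar proteins. Ncl, nucleolin, had 2765, 2347, 730 and 766 normalized counts, mitochondrial replicates 1 and 2 before rest replicates 1 and 2, a difference of 1.77 (SE 0.17, adjusted p = 0.0427 from limma). Npm1, nucleophosmin, had 616, 515, 145 and 160, a difference of 1.88 (SE 0.19, adjusted p = 0.0427 from limma). The calls for both genes were lost when any library was left out. Polr1a, the largest subunit of RNA polymerase I, had 225, 148, 282 and 225, and Ubtf, which binds rRNA gene promoters, had 116, 156, 175 and 147. The largest replicate difference in this list was 2.07 on the log2 scale, for Polr1b in the mitochondrial fraction, with 4, 20, 29 and 24. Its value in mitochondrial replicate 1 was near the floor, as 1 read added 3.87 there.

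The genes most alike to each locus over the 4 libraries were taken from 5556 genes with a mean above 50 normalized counts, by the distance between log2 values centred on their mean. Lars2 was closest to Gm15564 (distance 0.70), followed by CT010467.1 (2.30) and Mir6236 (2.49). Gm15564 was closest to Lars2, then to CT010467.1 (1.68) and Mir6236 (2.11). The genes nearest to Mir6240 were Nppa, which encodes atrial natriuretic peptide (1.50), CT010467.1 (1.56) and Acta2, smooth muscle actin (1.71). Nearest to Gm26917 were 3 genes of the type snRNA, Gm24497 (0.20), Gm26316 (0.38) and Gm23444 (0.54). Gm24497 was at 43, 23, 431 and 269 normalized counts, with both rest libraries above both mitochondrial ones, as for Gm26917. Lars2 and Gm15564 were both selected for high values in the replicate 2 libraries, so their nearness follows in part from that choice. With 4 libraries behind each distance, these are a description.

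Some cell type markers also differed between the replicates. Of the smooth muscle markers 2 were tested, both higher in replicate 2 of each fraction, with summed levels of 136, 423, 588 and 1374 normalized counts. The 4 erythroid markers, summing to 50, 323, 781 and 412, were higher in replicate 2 of the mitochondrial and in replicate 1 of the rest fraction. The 5 fibroblast markers went the opposite way, with 8188, 3440, 2175 and 3063, and the 4 leukocyte markers had 453, 286, 177 and 257. The largest replicate difference of a marker was 3.85 on the log2 scale, for Hbb-bs in the mitochondrial fraction, against 4.77 for Lars2 there. Hbb-bs had 4 and 71 normalized counts in mitochondrial replicates 1 and 2, near the floor of replicate 1, where 1 read added 3.87. The part of these cell types in the values of the 4 loci was not tested.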

How the data were processed

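RNA from 2 mitochondrial and 2 rest fractions of mouse hearts was sequenced as single-end reads with a total RNA kit for low input, of a kind that depletes ribosomal cDNA. Per the submitters' processing notes, the authors used Trimmomatic 0.39, STAR 2.7.10a, featureCounts 2.0.2 and DESeq2 1.30.1 (mm10); the methods of the paper name other versions of all but the first of these. Reads that aligned to several regions or overlapped several genes were left out by the authors, which bears on loci with near-identical copies. Use of strand in counting is not given in the sources used here. The deposited signal is a normalized count, made by the authors by dividing counts by size factors and rounding, and 0 columns of the table were left unused. In the rest libraries a read was worth less than 1 normalized count, so that whole reads could not be restored and no test for counts was run; read numbers are approximate.

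The 12150 of 15746 genes that reached 10 normalized counts in 2 libraries or more, all 4 loci among them, were tested with limma 3.58.1 (R 4.3.3, with a trend of the variance). Values were log2 after adding a pseudocount of 1, with Benjamini-Hochberg adjustment over these genes, two-sided, and calls at an adjusted p under 0.05. With 2 libraries against 2, an exact permutation test cannot go below p = 0.333 and was not used. The scripts were tested on simulated data. Transcripts were aligned with blastn 2.17.0. Python 3.11.15 served for the rest, with scipy 1.17.1 for intervals, pandas 2.3.3 and numpy 2.4.6 for tables and matplotlib 3.10.9 for plots. Wilson and exact intervals at 95% cover counting error only. The 4 loci and all lists were chosen with earlier results of these data known. Named genes were the 4 loci, loci listed as copies of rRNA sequence, the neighbours, mitochondrial synthetases and genes of rRNA production. They also included the 3 most alike genes of each locus, all genes past 8-fold between replicates in both fractions, and cell type markers. AA474408, Gm6425, Kpna1 and Parp9 were added for their sequence, value or position. Alternatives were other scalings, pseudocounts of 0.1 and 10, no filter or a mean above 50, the replicate number as a block, and each library left out.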

Additional observations from a re-analysis of the deposited data

How the results depend on the processing

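Scaled to library totals, 2 genes were higher and 12022 lower in the mitochondrial fraction, with totals without the mitochondrial chromosome 129 and 3819, and, chosen after seeing the data, with totals that also leave out the 4 loci, CT010467.1, Mir6236 and AA474408, 135 and 4569. A pseudocount of 0.1 gave 0 and 0 (1694 and 1754 at an unadjusted p under 0.05), and one of 10 gave 536 and 580. A mean above 50 gave 790 and 670 of 5556 genes, with no value for Mir6240, and no filter gave 630 lower. Each library left out gave 0 to 0 calls by limma in both directions, with 590 to 2333 higher and 468 to 3324 lower at an unadjusted p under 0.05. With the replicate block, 470 were higher and 309 lower. The replicate numbers share no stated animal or batch, and the replicate differences of both fractions correlated across genes with r = 0.13. The block left Lars2 (adjusted p = 0.604), Gm15564 (0.869) and Mir6240 (0.405) past no threshold.

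Library totals gave fraction differences of -4.33 for Lars2, -3.85 for Gm15564, -3.99 for Mir6240 and -7.41 for Gm26917. Totals without the mitochondrial chromosome gave -1.21 for Lars2, -0.74 for Gm15564, -1.40 for Mir6240 and -4.29 for Gm26917, and totals also without the rRNA-like loci gave -1.28, -0.81, -1.46 and -4.35. With a library left out, Lars2 ran from -3.50 to 2.81, Gm15564 from -2.87 to 3.12, Mir6240 from -2.33 to 1.13 and Gm26917 from -3.88 to -2.97. The mean replicate difference of Mir6240 moved from 3.38 to 3.19 with totals without the mitochondrial chromosome, to 3.59 with a pseudocount of 0.1 and to 2.28 with one of 10. That of Gm26917 moved from -0.81 to -0.39 with library totals, where the mitochondrial value turned to 0.44, and to -1.0 without the mitochondrial chromosome. Lars2 and Gm15564 kept the direction of their replicate difference under all 6 settings tried. Both genes were selected on that large difference, so this is no test of it. Mir6240 is limited by depth, with 1 read in mitochondrial replicate 1. The causes of these changes were not tested.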

Other observations

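Other genes were singled out after their values were seen. Bmp10, a growth factor made mainly in the atria, had 8 and 41 normalized counts in the mitochondrial and 25 and 421 in the rest libraries. Replicate 2 was the higher one in each fraction, as for the cardiomyocyte marker Nppa (112, 431, 180 and 644). Most cardiomyocyte markers went the other way. Of 9, replicate 2 was higher in both fractions for 2 and replicate 1 for 6. Gm12895, a processed pseudogene on chromosome 4 like Gm12896, had 221, 43, 679 and 63, with replicate 1 the higher one in both fractions.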
